A study of Mus musculus with 8 samples.

Results

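The genes described here encode the proteasome, its regulators and the chaperones that build it. They were taken by symbol: all mouse protein-coding genes of build mm10 whose symbol is Psm, a letter from a to g and a digit. The rule gave 50 genes of 21938 protein-coding genes, and no measured value entered it. Of the 50, 8 encode 20S alpha subunits, 7 encode constitutive 20S beta subunits and 4 encode inducible or tissue-restricted beta subunits. A further 6 encode 19S ATPases, 11 encode 19S subunits without ATPase activity, 3 encode base chaperones and 4 encode 20S chaperones. The remaining 7 are 4 activators, 1 inhibitor and 2 genes that the rule takes by symbol only, Psmc3ip, a cofactor of meiotic recombination, and Psme2b, named as a copy of Psme2.

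The proteasome breaks down proteins that carry ubiquitin chains. Its 20S core is a barrel of stacked rings, in which alpha subunits form the gates and beta subunits hold the catalytic sites. The 19S particle caps the barrel, binds and unfolds the substrate with a ring of ATPases, and removes the ubiquitin. In skeletal muscle this pathway is known for its part in atrophy, including the wasting caused by glucocorticoids, and the transcription factor encoded by Nfe2l1 is known to raise proteasome genes together through antioxidant response elements (ARE).

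Chromatin immunoprecipitation with sequencing (ChIP-seq) was done on skeletal muscle nuclei of WT mice, strain C57/Bl6J, aged 10 to 12 weeks, with no treatment given in the labels. There was 1 library each for the glucocorticoid receptor (GR), RNA polymerase II (Pol2), H3K4me3, a mark of promoters, H3K27ac, a mark of active promoters and enhancers, H3K4me1, found at enhancers and promoter flanks, and CTCF (written Ctcf in the labels), an architectural protein. An input library, Input1, belonged with GR, Pol2, H3K27ac and H3K4me1, and a second, Input2, with CTCF and H3K4me3. With no replicates, no test between samples was made, and the intervals below cover the counting of genes only. The nuclear lists held 23188 GR, 20192 Pol2, 19811 H3K4me3, 44151 H3K27ac, 75523 H3K4me1 and 6526 CTCF peaks, while the sources used here do not give the read depth. All 6 muscle fibre marker genes, among them Acta1 and Ckm, had GR, Pol2, H3K4me3 and H3K27ac peaks at a transcription start site (TSS), against 0, 2, 1 and 0 of 7 immune markers for the same lists in that order. Fibroblast markers had all of these in 3 of 3. In whole tissue, fewer cells with a peak and less occupancy per cell cannot be told apart.

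The sequences of 6 promoters are shown because they carry the contrast described below: they were chosen after the values were seen. Psmb6, Psmc6, Psmd14 and Psmd4 had a GR peak over the TSS, while Psmb5 and Psmc4 had Pol2 and no GR peak. Each stretch lies directly upstream of the first annotated start, is written 5′ to 3′ on the gene's strand, and comes from RefSeq sequence of GRCm38. Capitals mark matches, on either strand, to the ARE core TGACNNNGC, the CCAAT box, the ETS motif CCGGAAG and the motif of nuclear respiratory factor 1, which reads GCGCGTGCGC in Psmd14 and GCGCACGCGC in Psmc4.
Psmb6, chr11:70525107-70525356, plus strand: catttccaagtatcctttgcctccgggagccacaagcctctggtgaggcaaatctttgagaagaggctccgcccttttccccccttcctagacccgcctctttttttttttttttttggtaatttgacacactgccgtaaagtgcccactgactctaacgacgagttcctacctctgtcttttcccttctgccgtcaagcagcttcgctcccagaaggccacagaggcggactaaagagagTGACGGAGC
Psmc6, chr14:45329574-45329787, plus strand: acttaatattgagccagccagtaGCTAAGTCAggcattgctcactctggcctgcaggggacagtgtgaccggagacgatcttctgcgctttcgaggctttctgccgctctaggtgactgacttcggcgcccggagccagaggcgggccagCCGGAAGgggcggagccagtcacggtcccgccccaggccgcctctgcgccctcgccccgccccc
Psmd14, chr2:61711444-61711693, plus strand: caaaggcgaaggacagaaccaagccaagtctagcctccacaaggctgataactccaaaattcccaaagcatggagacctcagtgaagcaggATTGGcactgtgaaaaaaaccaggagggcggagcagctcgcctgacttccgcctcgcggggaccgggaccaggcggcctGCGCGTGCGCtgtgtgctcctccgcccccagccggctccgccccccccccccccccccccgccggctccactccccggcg
Psmd4, chr3:95042615-95042864, minus strand: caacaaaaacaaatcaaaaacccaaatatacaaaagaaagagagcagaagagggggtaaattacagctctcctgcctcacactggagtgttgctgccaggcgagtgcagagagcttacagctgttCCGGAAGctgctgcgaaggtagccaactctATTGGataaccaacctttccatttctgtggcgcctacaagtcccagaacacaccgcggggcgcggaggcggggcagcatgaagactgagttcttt
Psmb5, chr14:54618023-54618245, minus strand: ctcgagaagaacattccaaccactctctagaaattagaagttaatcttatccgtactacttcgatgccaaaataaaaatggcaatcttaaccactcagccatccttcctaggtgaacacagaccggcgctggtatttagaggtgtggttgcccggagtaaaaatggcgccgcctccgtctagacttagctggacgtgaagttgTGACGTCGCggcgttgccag
Psmc4, chr7:28050102-28050342, minus strand: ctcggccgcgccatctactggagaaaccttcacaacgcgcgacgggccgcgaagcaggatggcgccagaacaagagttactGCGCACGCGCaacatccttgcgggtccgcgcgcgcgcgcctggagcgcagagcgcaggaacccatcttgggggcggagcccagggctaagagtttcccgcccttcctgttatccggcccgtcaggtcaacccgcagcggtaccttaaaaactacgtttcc
The GR peak covered 237 of the 250 bases shown for Psmb6, 213 of 214 for Psmc6, 152 of 250 for Psmd14 and 178 of 250 for Psmd4. It covered 0 bases of the 223 shown for Psmb5 and of the 241 shown for Psmc4. The ARE core was thus read on both sides of the contrast, as TGACGGAGC in Psmb6 and TGACGTCGC in Psmb5.

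Most proteasome genes had a GR peak at the start site. A peak was counted there if it shared at least 1 base with the stretch from 1 kb before to 1 kb after any TSS of the gene. GR peaks lay at a TSS of 39 of the 50 genes (78%, exact 95% interval 64.0 to 88.5%), against 42.6% of all protein-coding genes. Pol2 peaks lay at 45 (90%, 78.2 to 96.7%), against 46.6% of all genes. H3K4me3 and H3K27ac each marked 47 (94%, 83.5 to 98.7%), against 60.9% and 51.9% of all genes for these marks in that order. H3K4me1 lay within the window of 46 genes (92%, 80.8 to 97.8%), against 64.3%, and CTCF of 5 (10%, 3.33 to 21.8%), against 6.52%. The combination of GR, Pol2, H3K4me3 and H3K27ac was found at 38 proteasome genes (76%, 61.8 to 86.9%) and at 39.5% of all genes.

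The differences from the background were smaller among genes with an H3K4me3 peak. Among genes with H3K4me3 at a TSS, GR peaks lay at 39 of 47 proteasome genes (83.0%) and at 69.2% of the 13369 genes so marked. For Pol2 the shares were 45 of 47 (95.7%) and 76.1%, and for H3K27ac 47 of 47 and 84.2%. H3K4me1 gave 45 of 47 (95.7%) and 92.8%, and CTCF 5 of 47 (10.6%) and 10.1%. The combination of GR, Pol2, H3K4me3 and H3K27ac was found at 80.9% of the marked proteasome genes and 64.8% of the marked genes. Pol2, H3K4me3 and H3K27ac were together at 45 proteasome genes, 38 of them with GR. Over all genes they were together at 10018, of which 8657 had GR. Among genes with Pol2, H3K4me3 and H3K27ac, the GR share of proteasome genes was thus not above that of all genes.

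**Figure D1:**
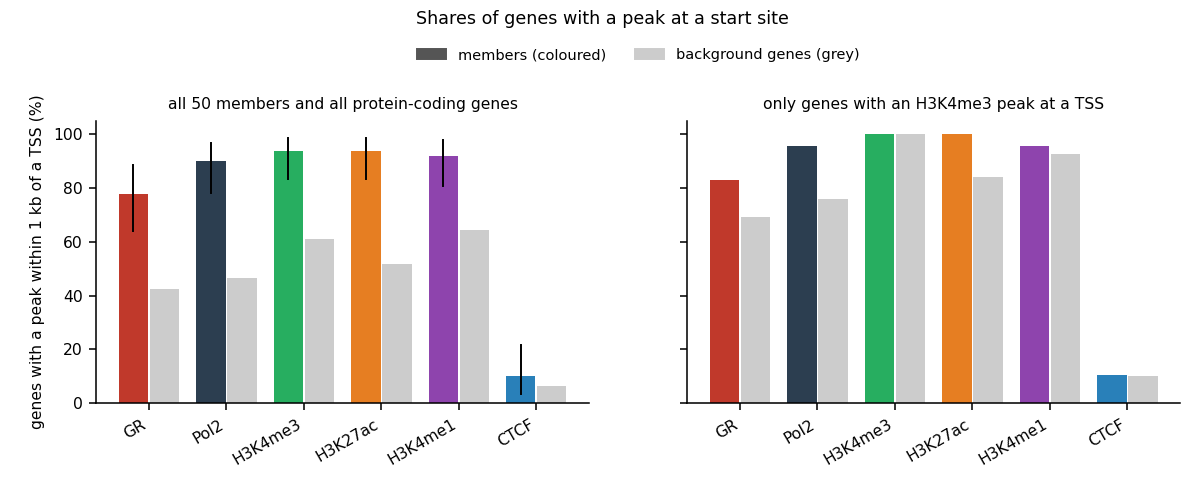
Shares of genes with a peak within 1 kb of a TSS, in percent, for each peak list; coloured bars are proteasome genes, grey bars are background genes, and lines are exact 95% intervals. On the left, 78% of the 50 proteasome genes and 42.6% of all genes have a GR peak; on the right, among genes with H3K4me3, the GR shares are 83.0% and 69.2%.

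The 20S core genes were occupied nearly throughout. Of the 8 alpha genes, 7 had GR, Pol2, H3K4me3 and H3K27ac at a TSS. The exception was Psma8, the alpha subunit known from testis, which had none of the 6 lists at its TSS; the nearest GR midpoint was 23003 bases away, next to the neighbouring gene Ss18. Testis markers Ddx4, Sycp1, Tnp1 and Prm1 likewise had 0 of 4 with GR, Pol2, H3K4me3 or H3K27ac. Among alpha genes the GR peak at the TSS was widest at Psma6 (447 bases, midpoint 19 bases downstream of the principal TSS). Psma3 and Psma7 had the most GR peaks within 25 kb among the alpha genes, 3 each as had Psma8. At Psma7 the peaks at the TSS were 150 and 235 bases wide, and the second lay nearer to the divergent gene Ss18l1.

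All 7 constitutive beta genes had Pol2, H3K4me3, H3K27ac and H3K4me1 at a TSS, and 6 had GR. The genes of the catalytic subunits differed: Psmb6, with caspase-like activity, had a GR peak of 353 bases and Psmb7, with trypsin-like activity, of 230 bases, whereas Psmb5, with chymotrypsin-like activity, had none. At Psmb5 a Pol2 peak of 133 bases was centred 40 bases downstream of the TSS and H3K4me3 had a fold of 40.5, but the nearest GR midpoint was 11957 bases away, at the TSS of 4931414P19Rik. Psmb3, a structural beta subunit, had the widest GR peak of the group (469 bases) and 4 GR peaks within 25 kb, also the most in the group. One of these, 195 bases wide and 12800 bases downstream, overlapped H3K27ac and H3K4me1 but not H3K4me3.

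Fewer of the inducible and tissue-restricted beta genes had GR or Pol2 at the start. Each of these was at the TSS of 1 of these 4 genes, against 6 and 7 of the 7 constitutive beta genes. Over all protein-coding genes the shares were 42.6% for GR and 46.6% for Pol2. The counts of these 4 genes depend on the window, since Psmb10 had both peaks farther than 1 kb from its annotated TSS. Of the 4 genes, 3 had H3K4me3 and H3K27ac at a TSS and 4 had H3K4me1. Psmb8, Psmb9 and Psmb10 encode the catalytic subunits of the immunoproteasome, which replaces the standard core in immune cells and after interferon. Psmb8 had a GR peak of 148 bases, 496 bases downstream of the TSS, and no Pol2 peak. Psmb9 had a Pol2 peak of 99 bases, centred 96 bases upstream of the nearest of its start sites, and no GR peak, and shares its promoter with Tap1, a peptide transporter gene whose TSS is 38 bases away. Psmb10 had neither within 1 kb, but a GR peak of 271 bases centred 1307 bases downstream and a Pol2 peak of 310 bases centred 1250 bases downstream of the TSS, inside the gene. Its H3K4me3 summit lay 1142 bases downstream with a fold of 48.3, against folds of 25.7 at Psmb8 and 16.6 at Psmb9. Psmb11, the beta subunit known from thymic epithelium, had H3K4me1 only, and the thymic marker Foxn1 likewise had H3K4me1 only. Immune markers such as Ptprc had no GR or H3K27ac peak at a TSS in 7 of 7 cases; the part of immune cells in the immunoproteasome values was not tested.

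**Figure D2:**
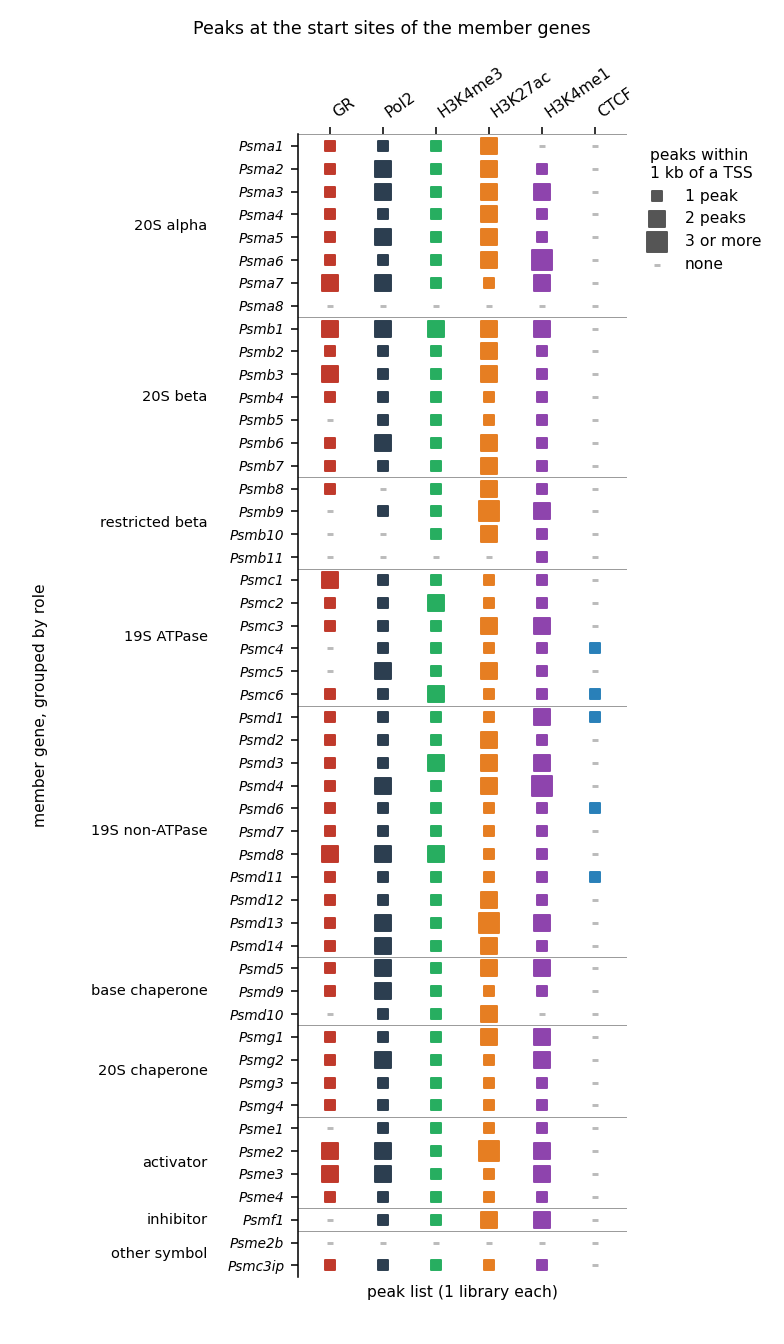
Number of peaks within 1 kb of a TSS for each proteasome gene (rows, by role) in each peak list (columns, 1 library each); larger squares are more peaks and a dash is none. GR is absent in 11 rows, among them Psmb5, Psmc4, Psmc5 and Psmf1, and CTCF is present in 5 rows, all of them 19S genes.

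In the 19S particle, all 6 genes of the ATPase ring had Pol2, H3K4me3, H3K27ac and H3K4me1 at a TSS, and 4 had GR. Psmc4 and Psmc5 lacked GR, with the nearest midpoint 119572 and 12378 bases away. Psmc4 had a weak H3K4me3 peak (fold 21.7) and a Pol2 peak of 168 bases, while Psmc5 had a strong one (fold 57.3) and Pol2 peaks of 197 and 99 bases, the narrower of them on the side of the divergent gene Ftsj3. Psmc3 had the widest GR peak among all 50 genes (488 bases). Psmc1 had 4 GR peaks within 25 kb: 329 and 157 bases wide at the TSS, and 125 and 269 bases wide at 6068 and 12788 bases inside the gene, where H3K4me1 was the only overlapping list.

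Psmc2 carried a pair of separate promoter-like sites. At its annotated TSS, which lies 32 bases from that of Dnajc2 on the other strand, were a GR peak of 250 bases and a Pol2 peak of 147 bases, both centred upstream. A GR peak of 291 bases and a Pol2 peak of 334 bases followed 1478 and 1427 bases downstream, under another H3K4me3 peak with a fold of 35.6. The RefSeq promoter table lists a second Psmc2 promoter there, at chr5:21786497-21786796.

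All 11 genes of 19S subunits without ATPase activity had GR, Pol2, H3K4me3, H3K27ac and H3K4me1 at a TSS. The GR peaks ran from 167 bases at Psmd1, a scaffold subunit, to 460 bases at Psmd8. Psmd4, a ubiquitin receptor, had a GR peak of 371 bases, and Psmd14, the deubiquitinase of the lid, of 287 bases. Psmd2, a scaffold that docks substrate shuttles, had a GR peak of 228 bases with Pol2, and an H3K4me3 fold of 20.8. Psmd2, Psmd8 and Psmd13 each had 4 GR peaks within 25 kb. At Psmd8 the second, 266 bases wide and 908 bases from the nearest TSS, lay with Pol2 in the first part of the gene, and was the farthest from a TSS among those counted at one.

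Among the chaperones, all 4 genes of 20S assembly factors had GR at the TSS and 2 of 3 base chaperones did. The 20S chaperones had GR peaks with widths of 447 bases at Psmg1, 160 at Psmg3, 155 at Psmg2 and 123 at Psmg4, the last at the smallest width in the whole GR list. Each had 1 GR peak within 25 kb. That of Psmg2 was centred 347 bases upstream of its principal TSS and 84 bases from the TSS of the divergent gene Cep76. Of the base chaperones, which guide assembly of the ATPase ring, Psmd5 (326 bases) and Psmd9 (234 bases) had GR. Psmd10, which encodes gankyrin, had none, and the nearest GR midpoint was 26983 bases away. Its only Pol2 peak, 112 bases wide, was centred 67 bases from the TSS of the divergent gene Atg4a.

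Among the regulators, GR was at the TSS of 3 of 4 activators and not at the inhibitor. Psme1 and Psme2 encode the partners of the PA28 ring that opens the core and is known to rise with interferon. Psme2 had GR peaks of 432 and 288 bases, while Psme1 had none at its TSS, although 6 GR peaks lay within 25 kb, the most of any proteasome gene. Of those 6, 2 were the Psme2 and Rnf31 promoter peaks on the same stretch of chromosome 14, and the nearest, 2515 bases off, lay at Fitm1. Psme3, whose product activates the nuclear proteasome, had peaks of 191 and 144 bases, and Psme4, encoding PA200, a peak of 346 bases centred 3 bases upstream of the TSS. Psmf1, encoding the inhibitor PI31, had a Pol2 peak of 232 bases and an H3K4me3 fold of 42.6, and its nearest GR midpoint was 165130 bases away. Psmc3ip had a GR peak of 161 bases and Psme2b had no peak of the 6 lists at its TSS, its nearest GR midpoint being 89174 bases away.

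Several promoters had more than 1 GR peak. At least 2 lay at a TSS of 7 genes (14%, 5.82 to 26.7%), against 11.2% of all genes and 18.3% of genes with H3K4me3. The 7 were Psma7, Psmb1, Psmb3, Psmc1, Psmd8, Psme2 and Psme3. At Psmb1, a beta subunit, the peaks were 257 bases wide, centred 15 bases upstream of the principal TSS, and 399 bases wide, nearest to the divergent gene Tbp.

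The 11 genes without GR at the TSS thus fell into separate kinds. Psma8, Psmb11 and Psme2b lacked Pol2, H3K4me3 and H3K27ac as well, and Psmb10 had GR and Pol2 deeper in the gene. The other 7, namely Psmb5, Psmb9, Psmc4, Psmc5, Psmd10, Psme1 and Psmf1, had Pol2, H3K4me3 and H3K27ac and no GR. Of these 7, Psmc4, Psmd10 and Psmf1 also had no GR peak midpoint within 25 kb, as had Psme2b. Promoters with Pol2, H3K4me3 and H3K27ac but no GR were about as common among all genes. Over all genes, 8657 of 10018 with Pol2, H3K4me3 and H3K27ac had GR, against 38 of 45 proteasome genes.

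The GR peaks sat close to the start of transcription. The principal TSS here is the start of the transcript that the annotation ranks as principal. Where several peaks of a list lay within 1 kb of it, the one with the midpoint nearest to it was taken for GR and Pol2, and the strongest for H3K4me3. The GR midpoint lay within 150 bases of the principal TSS in 34 of 39 proteasome genes (87.2%), against 76.1% of the 8836 protein-coding genes with such a peak. The median midpoint was 9 bases upstream (position -9, 95% interval of the median -43 to 19, range -347 to 496), against -23 over all genes. The median Pol2 midpoint was 38 bases downstream (-10 to 65), against 36, and the median H3K4me3 summit 199 bases downstream (187 to 219), against 187. Summits 100 to 300 bases downstream were found in 33 of 47 proteasome genes (70.2%) and in 52.5% of all genes with one.

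**Figure D3:**
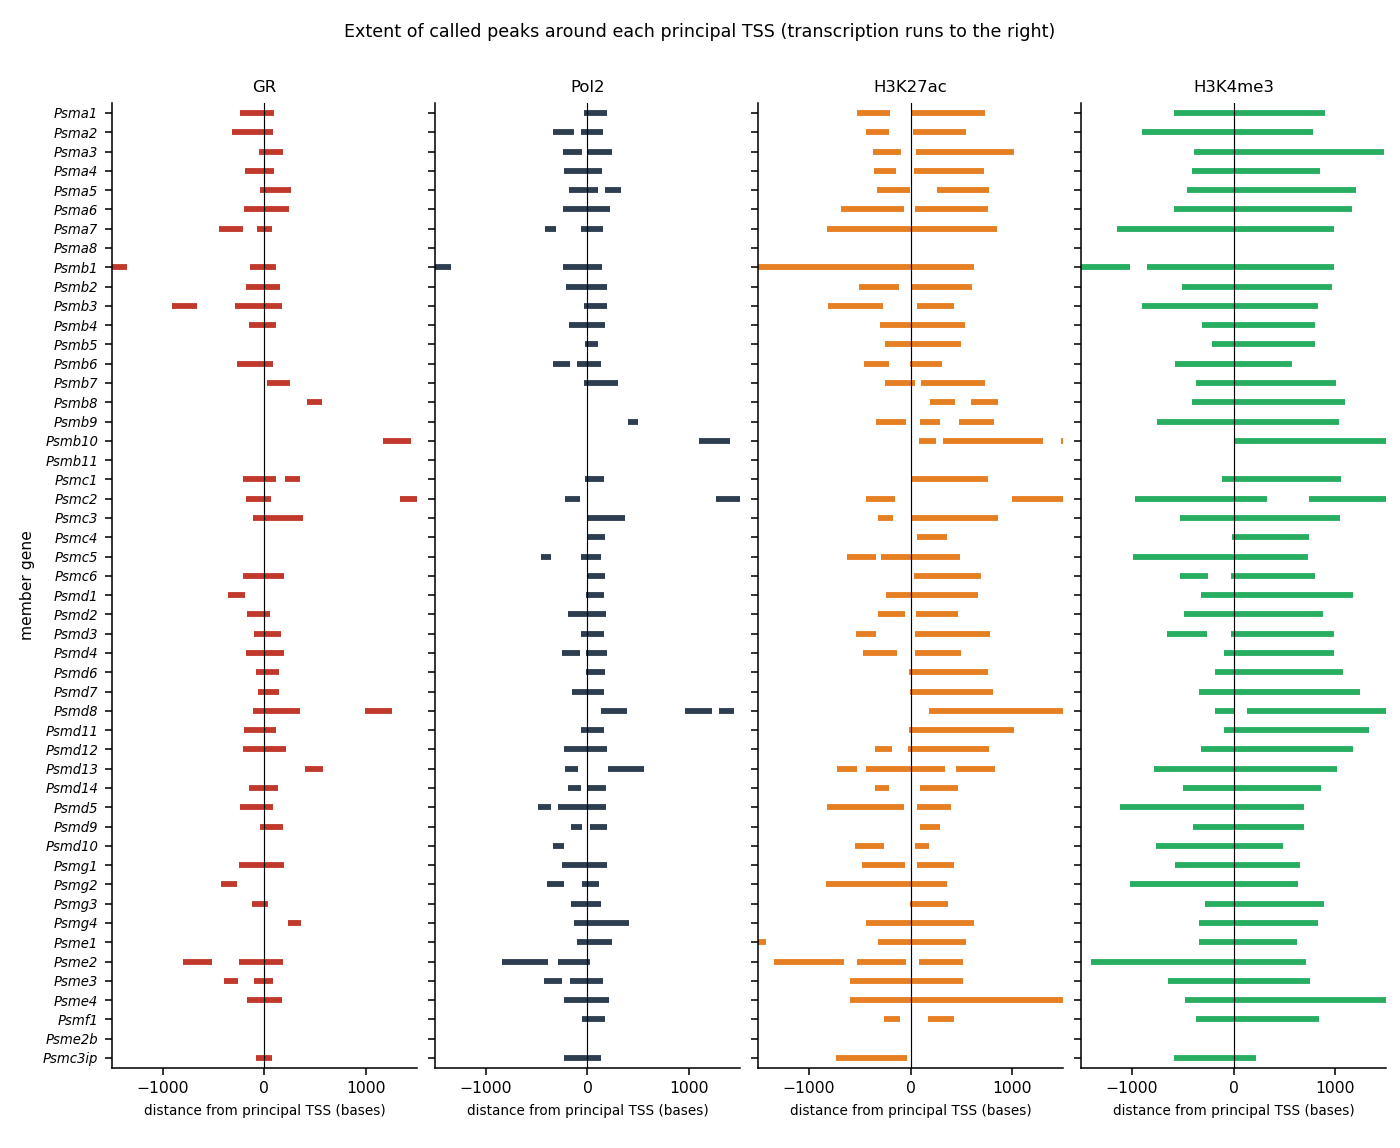
Extent of each GR, Pol2, H3K27ac and H3K4me3 peak around the principal TSS of each proteasome gene (rows), in bases, with transcription running to the right. GR and Pol2 bars sit on the TSS line in most rows, while H3K4me3 bars are broader and H3K27ac bars often leave a gap at the line; Psmb10 and the second Psmc2 site stand to the right.

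Acetylation was often split around the start. At least 2 H3K27ac peaks lay at the principal TSS of 26 proteasome genes (52%, 37.4 to 66.3%), against 26.7% of all genes and 43.5% of genes with H3K4me3. In 19 of the 26 (73.1%) the TSS itself fell into a gap between H3K27ac peaks, against 49.3% of all such genes. The GR midpoint fell into such a gap in 14 of 21 proteasome genes with both (66.7%), against 60.9%. At Psmb6 the gap ran from 213 to 9 bases upstream of the TSS (205 bases), and the GR midpoint was 90 bases upstream.

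**Figure D4:**
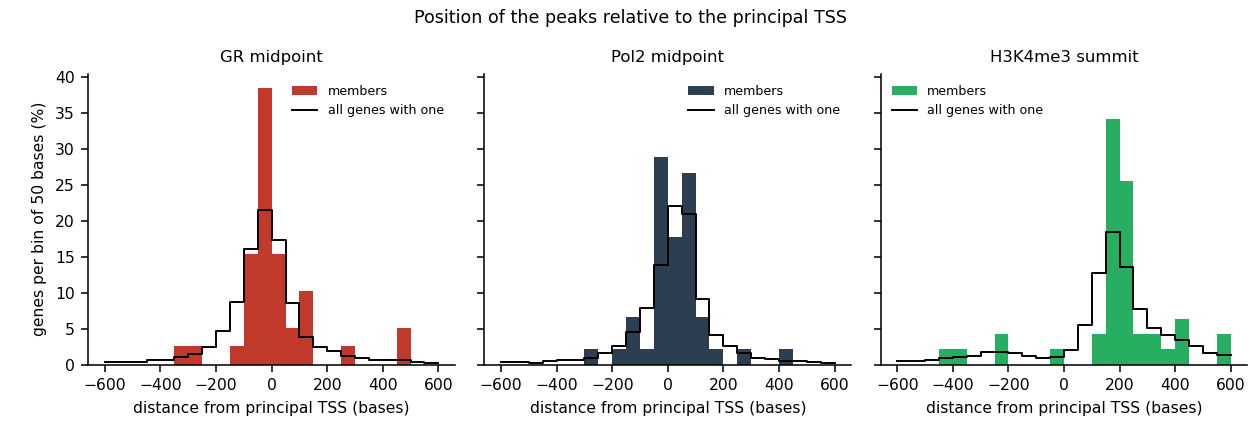
Distance of the GR midpoint, the Pol2 midpoint and the H3K4me3 summit from the principal TSS, in bins of 50 bases, as percent of genes with one; filled bars are proteasome genes and the black line is all genes. The medians of the proteasome genes are -9, 38 and 199 bases.

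GR peaks at proteasome genes were about as wide as elsewhere, and H3K4me3 peaks had a higher median fold. The widest GR peak at a TSS had a median width of 287 bases in proteasome genes (95% interval 234 to 346, range 123 to 488, n = 39), against 280 bases in all genes with one. For Pol2 the median width was 239 bases (220 to 345, n = 45), against 271 bases. Only H3K4me3 and CTCF came with an enrichment, the authors' linear fold per peak over input, which is used here within each list alone. The strongest H3K4me3 peak had a median fold of 42.7 (95% interval 38.4 to 48.3, range 16.6 to 74.0, n = 47), against 33.5 over all genes with one, and 38 of the 47 exceeded that value. The strongest were Psme4 (74.0), Psmb4 (63.2), a beta subunit of the core, and Psmd6 (62.2), a lid subunit. The weakest were Psmb9 (16.6), Psme1 (19.4) and Psmd2 (20.8).

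**Figure D5:**
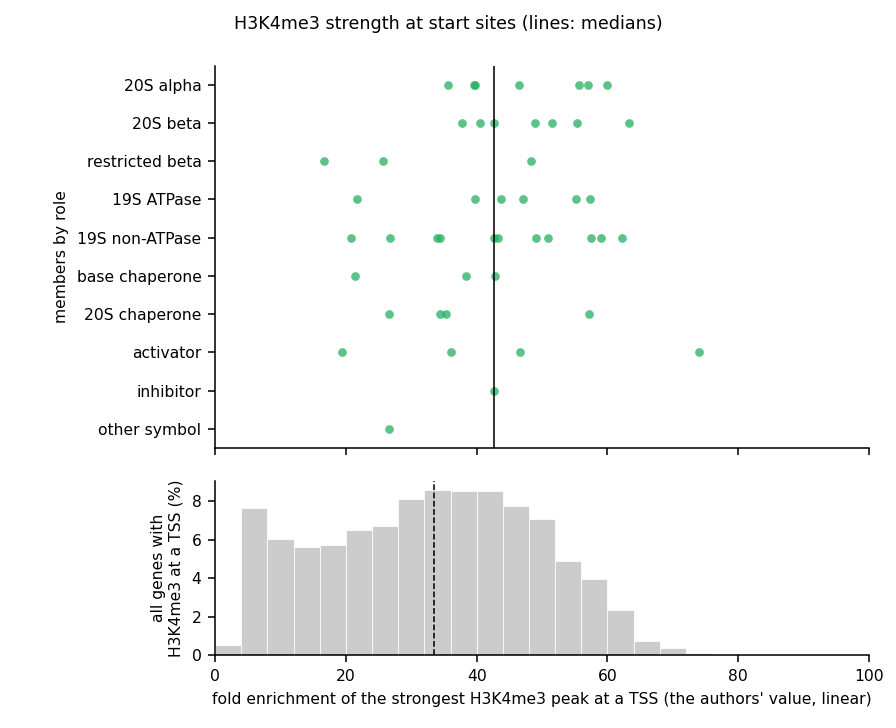
Fold enrichment of the strongest H3K4me3 peak at a TSS (the authors' value, linear axis) for each proteasome gene by role (top) and for all genes with such a peak (bottom, percent of genes per bin); lines are medians. The proteasome genes have a median of 42.7 and all genes 33.5; Psme4 at 74.0 is the rightmost point.

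The 5 CTCF peaks at proteasome TSS (10% of the genes, against 6.52% of all genes and 10.1% of genes with H3K4me3) all belonged to 19S genes. Psmd6 had a CTCF peak with a fold of 12.3 centred 14 bases upstream of the TSS, Psmd1 of 11.2 at 313 bases, and Psmc6 of 9.52 at 137 bases. Psmc4 had a fold of 8.16 and Psmd11, a lid subunit, of 6.38 at 120 bases. The peaks of Psmd6, Psmd1, Psmc6 and Psmd11 overlapped a GR peak, so 4 of 46 GR peaks at proteasome TSS (8.70%) met CTCF, against 8.19% of the 10995 GR peaks at any protein-coding TSS. At Psmc4, where GR was missing, the CTCF peak at chr7:28050207-28050443 reached into the promoter sequence shown above. So did the CTCF peak of Psmc6 at chr14:45329537-45329766, where GR was present. Within 25 kb a CTCF midpoint was found for 25 genes (50%, 35.5 to 64.5%), against 28.7% of all genes and 36.3% of genes with H3K4me3.

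In the flanks of the genes, most GR peaks lay nearest to the TSS of another gene. A GR midpoint lay within 25 kb of a TSS of 46 proteasome genes (92%, 80.8 to 97.8%), against 58.5% of all genes and 81.5% of genes with H3K4me3. A Pol2 midpoint lay within 25 kb of 49 genes (98%), against 57.9% of all genes, H3K4me3 of 49 (98%), against 70.8%, H3K27ac of 49 (98%), against 63.9%, and H3K4me1 of 50 (100%), against 77.2%. Among genes with H3K4me3 at a TSS, Pol2 and H3K27ac midpoints lay within 25 kb of 47 of 47 proteasome genes, against 82.9% and 89.6% for these lists in that order, and H3K4me1 of 47 of 47, against 97.9%. The median was 2 GR peaks (95% interval 1 to 2, range 0 to 6), against 1 in all genes and 2 in genes with H3K4me3. Together the TSS windows, bodies and flanks held 97 different GR peaks, 46 of them at a TSS, 7 in a body and 44 in the flanks. The 46 at a TSS all overlapped H3K4me3 and H3K27ac, against 95.3% and 91.7% of GR peaks at any TSS for these marks in that order. Pol2 overlapped 42 of them (91.3%), against 84.3% at any TSS, and H3K4me1 overlapped 14 (30.4%), against 47.7%. Of the 44 flank peaks, 36 overlapped H3K4me3, 3 had H3K4me1 with H3K27ac, and 5 had 1 or none of these marks. A proteasome gene owned the nearest TSS for 40 of the 46 and for only 5 of the 44.

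Inside the genes, GR, Pol2 and CTCF peaks were found in few members and H3K4me1 in most. GR was in the body, outside the TSS windows, of 7 genes (14%), against 16.2% of all genes. Pol2 was in the body of 4 (8%), against 8.38%, namely Psmb10, Psmd8, Psmc2 and Psma2. Pol2 peaks covered 18.1% of the Psmb10 body, 2.80% of the Psmd8 body and 1.91% of the Psmc2 body. The Psmb10 body was only 1709 bases long, and its share came from the 1 peak of 310 bases described above. The Pol2 and GR peaks in Psma2 lay at the TSS of AW209491. In the 6 fibre marker genes, Pol2 peaks covered 7.75% of the body in Mb, 46.5% in Mylpf, 71.1% in Ckm, 99.3% in Tnnt3 and 100% in Acta1 and Tnni2. The median length of the proteasome genes was 11638 bases, against 17425 bases for all genes. The H3K4me3 mark was in the body of 14 (28%, against 23.2% of all genes), H3K27ac of 11 (22%, against 23.1%), H3K4me1 of 46 (92%, against 61.8% of all genes and 86.2% of genes with H3K4me3) and CTCF of 3 (6%, against 9.7%). Among genes with H3K4me3 at a TSS, the H3K4me3 share in the body turned to the other side of the background, at 29.8% of proteasome genes against 34.1%, and H3K27ac was at 23.4% against 34.3%. In the same genes GR was in the body of 14.9%, against 23.2%, Pol2 of 8.51%, against 12.2%, and CTCF of 6.38%, against 12.8%.

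At 12 genes another protein-coding TSS lay within 1 kb, so a peak near both starts cannot be given to either gene. The share of all protein-coding genes with such a neighbour was not counted. The closest pairs were Psmc2 with Dnajc2 (32 bases), Psmb9 with Tap1 (38), Psma2 with Mrpl32 (75), Psmc5 with Ftsj3 (75) and Psma7 with Ss18l1 (76). Farther apart were Psmd13 with Sirt3 (99 bases), Psma4 with AY074887 (106), Psmb1 with Tbp (137), Psmd10 with Atg4a (179), Psmg2 with Cep76 (263), Psmg3 with Gm26938 (436) and Psme2 with Rnf31 (595). Without these 12, a choice made after seeing the data, GR was at a TSS of 30 of 38 genes (78.9%) and Pol2 of 33 of 38 (86.8%). Over all protein-coding genes, with no gene left out, the shares were 42.6% for GR and 46.6% for Pol2.

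Motif letters were read in RefSeq promoters of 300 bases, of which 250 lie before the start, found for 42 of the 50 genes. The full palindromic GR element, 15 letters with a free spacer, was in 0 of 42, against 2 of 16522 genes (0.0121%). It was also in 0 of the 46 GR peaks at proteasome TSS, against 3 of 10995 at any TSS (0.0273%) and 41 of 12193 away from a TSS (0.336%). These exact letters were in only 44 of all 23188 GR peaks (0.190%), so 0 of 46 cannot show a lack of GR elements. The ETS motif CCGGAAG was in the promoters of 15 of 42 genes (35.7%), against 13.4% of all genes, and in 19 of the 46 GR peaks (41.3%), against 17.2%. The nuclear respiratory factor 1 motif was in 7 of 42 (16.7%), against 7.44%, and in 5 of the 46 GR peaks (10.9%), against 10.8%. The CCAAT box was in 15 of 42 (35.7%), against 42.1%, and in 17 of the 46 (37.0%), against 3298 of the 10995. The ARE core TGACNNNGC was in 6 of 42 promoters (14.3%), against 15.0%, and in 13 of the 46 GR peaks (28.3%), against 15.1%. All motifs were read on both strands. A match describes the letters of the window only.

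Genes that work with the proteasome were also occupied at their promoters. Of 27 such genes found in the annotation, 26 had GR at a TSS, Uba1, the ubiquitin-activating enzyme, being the exception, and 27 had Pol2, H3K4me3 and H3K27ac. H3K4me1 was at 24 and CTCF at 3, and the median was 3 GR peaks within 25 kb. The count for GR stands beside the background of 42.6% given above, and the list was chosen with earlier results known. Among genes with H3K4me3 at a TSS, the shares were 69.2% for GR, 76.1% for Pol2 and 84.2% for H3K27ac. In the same genes they were 92.8% for H3K4me1 and 10.1% for CTCF, with a median of 2 GR peaks within 25 kb. Of the 10018 genes with Pol2, H3K4me3 and H3K27ac, 8657 had GR. Nfe2l1 had 4 GR peaks at its TSS, the widest 588 bases, and Pol2 peaks over 5.86% of its body. Nfe2l2, its relative in the oxidative stress response, had 3, the widest 685 bases. Ddi2, the protease that activates the Nfe2l1 product, had 1 of 229 bases. Zfand5, which encodes a proteasome-binding protein known from atrophying muscle, had 3, the widest 664 bases, with Pol2 peaks over 12.7% of its body. Pomp, the core maturation factor, had 1 GR peak of 241 bases; Sem1, a small lid subunit, 1 of 204 bases; Adrm1, a ubiquitin receptor, 1 of 486 bases; and Usp14, a deubiquitinase, 1 of 229 bases. Each of these widths but those of Nfe2l1, Nfe2l2 and Zfand5 lies within the range of 123 to 488 bases seen at the proteasome genes.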

How the data were processed

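ChIP-seq peak lists of 6 antibodies, 1 library each, from mouse skeletal muscle nuclei were used as the authors deposited them. Per the labels' protocols, each library took 10 ng of DNA and 7 cycles of PCR. Tools named in the submitters' processing notes are Bowtie 1.0.0, bcl2fastq 2.17.1.14 and MACS2 (version not given), and the build is mm10. The authors deposited peak positions in bases for all lists. For H3K4me3 and CTCF they also deposited a score, a linear fold (ratio) over the control and, on a −log10 scale, a p-value and a q-value per peak. Lacking a header, these columns were identified by their contents, the score being 10 times the −log10 q-value, truncated. Width stood in for strength elsewhere. Peaks were called per library, with thresholds and depth not given in the sources used here, so a missing peak means below an unknown limit.

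Genes and TSS of protein-coding transcripts came from GENCODE M21 (GRCm38). Mitochondrial peaks (8 GR, 7 H3K4me3, 5 CTCF, 1 Pol2) were left out. Overlap meant at least 1 base, and peaks within 25 kb were counted by midpoint. Shares carry exact Clopper-Pearson 95% intervals and medians carry order-statistic intervals, with genes taken as independent; PCR copies of a molecule are outside what these intervals cover. Python 3.11.15 and scipy 1.17.1 were used, and the overlap code was tested on simulated data. Sequences and promoters came from RefSeq for GRCm38. The genes, lists, motifs and alternatives were chosen with earlier results of these data known. Results for some of the motifs searched are not reported here. Genes given in full were the members with the widest GR peak and most GR peaks per role, those lacking GR, Pol2, H3K4me3 or H3K27ac, those with CTCF, and the 3 strongest and 3 weakest in H3K4me3 and the 3 with most Pol2 in the body; other details were picked after values were seen. The alternatives were other windows, overlaps, TSS sets, wider or stronger peaks, other members and another background.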

Additional observations from a re-analysis of the deposited data

How the results depend on the processing

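Of 71 alternatives computed for 12 results, 59 stayed within the interval of the reported value. The all-gene share was taken in the same setting, except where members were left out, when all protein-coding genes were kept. In 64 of 67 shares the proteasome genes were above that all-gene share. The 3 others were peaks in the body: GR by midpoint, 12% (all genes 15.8%), and GR and Pol2 among genes with H3K4me3, 14.9% (23.2%) and 8.51% (12.2%). With the widest 50% of peaks the body shares were on the other side of all genes from the reported ones, at 10% (8.79%) for GR and 6% (4.76%) for Pol2, as was Pol2 by midpoint, 8% (7.81%). With the widest 50% of peaks, shares at a TSS were 60% for GR (all genes 30.4%), 62% for Pol2 (31.0%), 80% for H3K27ac (44.1%) and 70% for H3K4me1 (46.2%), and GR within 25 kb was 76% (45.5%). Without Psma8, Psmb11, Psmc3ip and Psme2b, H3K4me3 and H3K27ac were at 100% of 46 genes (all genes 60.9% and 51.9%). Psma8, Psmb11 and Psme2b were the only genes lacking these marks, so the 100% follows from leaving them out. Among genes with H3K4me3, H3K27ac was at 100% (84.2%). H3K4me1 depended on the window: 56% by midpoint (44.6%), 70% within 500 bases (55.2%) and 54% with 50% of the peak inside (42.6%). Within 100 kb the median was 6 GR peaks (all genes 3). The cause was not tested. No paired analysis was possible because there was 1 library per antibody and no result came from a test. Peaks without a fold, an unknown depth and 1 library limit the lists: absence of a GR peak at Psmb5, Psmc4 or Psmf1 holds at the authors' unknown threshold only.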
